A study of Macaca mulatta with 6 samples.

Results

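The genes described here form the stress and supply programme of ATF4, a transcription factor that cells make when amino acids run short or unfolded proteins accumulate. They were chosen by symbol, as 41 genes in 4 groups: 14 ATF4 regulators, 9 serine and one-carbon enzymes, 10 amino acid carriers and 8 other amino acid enzymes. Of the 41, 35 had a row among the 17795 genes of the count data, and 34 passed the filter on low counts. ATF4 itself, ATF5, CEBPG, NUPR1, PSPH and SLC7A5 had no row under their symbols and were not analysed here. The sample labels name the source as testis, while the study describes cultured cells. The genes were compared in bulk RNA sequencing of cultured rhesus monkey (Macaca mulatta) SSCs (spermatogonial stem cells), which renew themselves in the testis and give rise to sperm. The SSC PDGF+ group held 3 libraries from SSCs given human PDGF, the platelet-derived growth factor, and the SSC PDGF- group held 3 libraries from cultures without it. Both were grown as droplets of basement membrane gel in a serum-containing medium with GDNF, EGF, bFGF, LIF and Wnt3a. That medium also supplied L-glutamine, nonessential amino acids, pyruvate and the reducing agent β-mercaptoethanol, as far as the general culture method states it. No genotype or treatment other than PDGF is given for the groups, and the donors' ages, the days in culture and whether animals were pooled are not given for these libraries. In both groups the labels place replicate 1 in batch 1 and replicates 2 and 3 in batch 2.

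In the ATF4 pathway, kinases such as PERK (EIF2AK3) and GCN2 (EIF2AK4) phosphorylate the translation factor eIF2, which slows protein synthesis in general and raises translation of ATF4. ATF4 pairs with C/EBP proteins on DNA and raises transcription of genes for amino acid import, for the synthesis of serine, asparagine and proline, for mitochondrial folate metabolism and for feedback inhibitors. Because ATF4 is controlled largely at translation, the mRNA of its targets is commonly used as its readout. Growth factors that act through mTORC1 are also known to raise ATF4 and its biosynthetic targets without stress.

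Totals ranged from 10593805 to 14102697 counts per library, and levels are given in CPM, that is, counts scaled to the same library total, after TMM normalization. Replicate 1 stood apart from replicates 2 and 3 in both groups: the chi-square per degree of freedom between replicates was 44.8 to 57.0 against replicate 1, and 3.36 and 3.64 between replicates 2 and 3. Whether replicates 2 and 3 came from separate cultures is not given, so p-values may measure technical spread. Markers of several cell types differed between the groups. The 10 tested spermatid markers were all called lower, with a summed level of 68.4 to 103 CPM in SSC PDGF+ and 569 to 906 CPM in SSC PDGF-. Of the 6 tested epithelial markers 5 were called lower, with sums of 36.3 to 52.4 CPM and 178 to 245 CPM. Both sums were lower in every SSC PDGF+ library than in any SSC PDGF- library. The 7 peritubular myoid markers had sums of 401 to 510 CPM and 1017 to 1172 CPM, and 3 of them were called lower. Stromal fibroblast markers were abundant in both groups, at 23690 to 28990 CPM and 26450 to 27780 CPM, with 2 of 10 called lower. The Sertoli markers had sums of 1449 to 1920 CPM and 868 to 1169 CPM, with 1 of 4 tested, CLU, called higher. The median log2 fold change of these 4 was 0.08, and the Sertoli markers AMH, SOX9 and CLDN11 had no row. Of 4 tested Leydig markers 1, IGF1, was called lower, and the sums were 266 to 333 CPM and 232 to 269 CPM. The undifferentiated spermatogonial markers summed to 473 to 519 CPM and 435 to 537 CPM, but their members differed between groups. Of 7 tested, 1 was called higher (UCHL1) and 3 lower (FGFR3, DDX4 and TSPAN33), 5 lay wholly lower in SSC PDGF+, and the median log2 fold change was -2.07. UCHL1 and ID4 made up most of the sum, while NANOS2 was at 0 and the germ cell marker DDX4 was at a mean of 0.305 CPM in SSC PDGF+ and 2.13 CPM in SSC PDGF-. The T cell markers CD3E and CD8A were at 0 in all 6 libraries. Of the 16 listed markers of undifferentiated spermatogonia, 14 had a row and 7 passed the filter, so the labelled cell type is borne out by few of its defining markers. The part of these cell type differences in the results below was not tested, and in bulk samples fewer cells of a type and less RNA per cell cannot be told apart.

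The 34 tested genes did not move in 1 direction. With edgeR's quasi-likelihood test and a Benjamini-Hochberg adjusted p under 0.05, 6 were called higher in SSC PDGF+ (17.6%), 2 were called lower (5.88%) and 26 were not called. With upper quartile scaling the split was 4 higher and 3 lower. Among all 11539 genes tested, 7.61% were called higher and 10.7% lower. The median log2 fold change of SSC PDGF+ over SSC PDGF- was 0.02 over the 34 genes and 0.02 over all genes tested. The 3 libraries of 1 group lay wholly above those of the other for 10 of the genes and wholly below for 5, and the groups overlapped for 19. Over all genes tested, 18.2% lay wholly above and 19.3% wholly below. When the replicate number entered the fit as a block, 14 genes were called higher and 9 lower, but the block also called 31.1% of all tested genes higher and 29% lower. In both batches 28 of the 34 genes had the same sign.

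**Figure D1:**
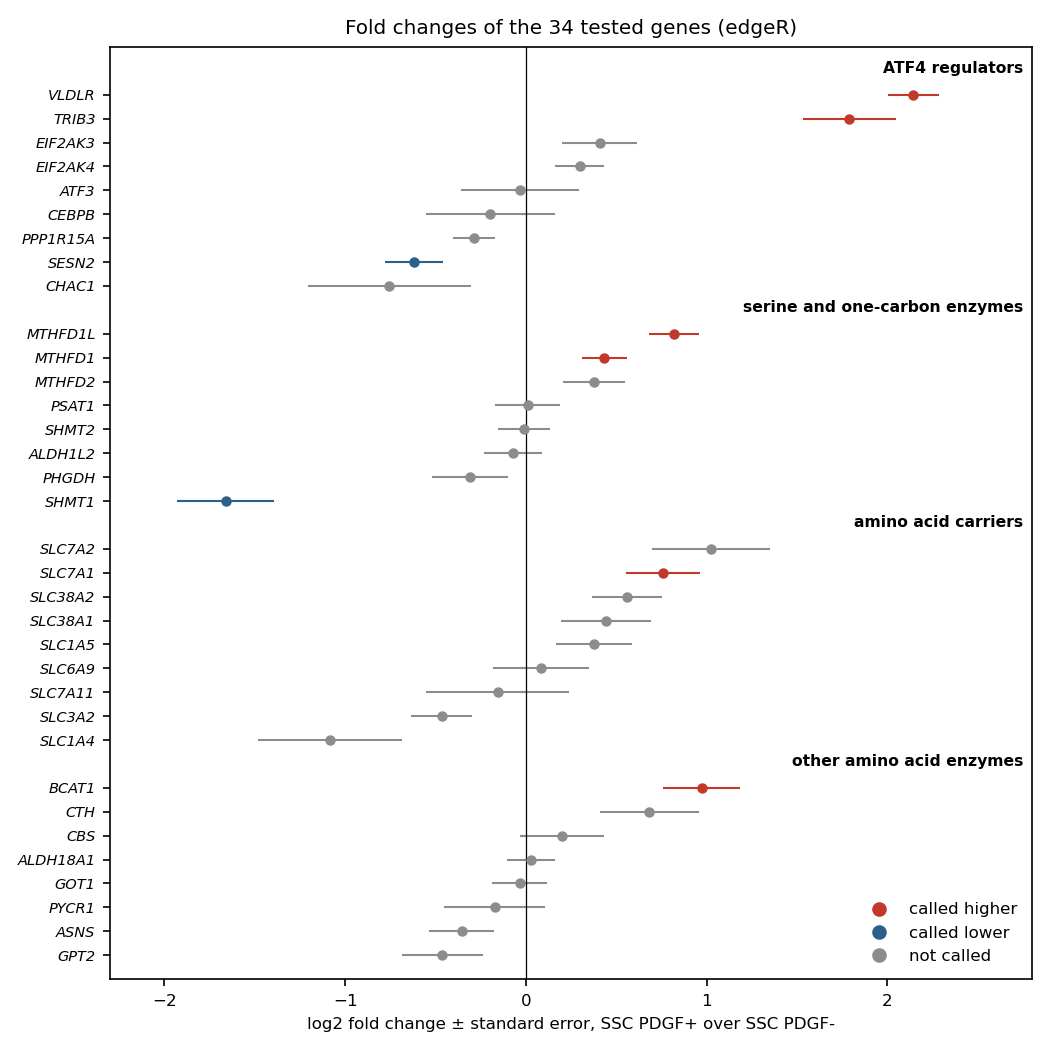
Log2 fold change of SSC PDGF+ over SSC PDGF- (x axis) for each of the 34 tested genes (y axis), by group, with bars for the standard error from edgeR and colours for the genes called higher, called lower or not called. The values run from -1.66 for SHMT1 to 2.14 for VLDLR, and the 26 genes not called lie on both sides of 0.

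Among the ATF4 regulators, 2 of 9 tested genes were called higher and 1 lower, with a median log2 fold change of -0.03. The largest log2 fold change was that of VLDLR, the very low density lipoprotein receptor, which takes up triglyceride-rich particles and also binds reelin. It is in this group by the chosen list, which does not make it a controller of ATF4. Any link of its level to ATF4 was not tested. VLDLR stood at 97.2, 89.0 and 96.3 CPM in SSC PDGF+ replicates 1, 2 and 3, and at 22.7, 20.6 and 20.6 CPM in SSC PDGF-. Every SSC PDGF+ library was far above every SSC PDGF- library, and the libraries of each group lay close together. The log2 fold change was 2.14 with a standard error of 0.14 (adjusted p = 0.000106 in edgeR), and the groups differed by 2.09 in batch 1 and by 2.17 in batch 2.

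TRIB3, a pseudokinase that ATF4 induces and that binds AKT and ATF4 itself, was also called higher. It stood at 27.7, 46.0 and 49.5 CPM in SSC PDGF+ replicates 1, 2 and 3, and at 11.3, 10.2 and 14.0 CPM in SSC PDGF-. The lowest SSC PDGF+ library was that of batch 1 and still lay above all 3 SSC PDGF- libraries. The log2 fold change was 1.79 with a standard error of 0.26 (adjusted p = 0.00289 in edgeR), and within batches it came to 1.29 (batch 1) and 1.99 (batch 2). VLDLR and TRIB3 kept their calls with each library left out in turn, and they were the 2 of the 41 genes still called when replicates 2 and 3 of each group were summed. That setting was added with the values known.

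SESN2, a leucine sensor that restrains mTORC1 when leucine is scarce, moved the other way. Its level was 41.4, 51.2 and 52.7 CPM in SSC PDGF+ and 66.9, 73.5 and 82.8 CPM in SSC PDGF-, so the groups did not overlap. Its log2 fold change was -0.62 with a standard error of 0.16 (adjusted p = 0.0324 in edgeR), with -0.69 in batch 1 and -0.59 in batch 2. Its call was lost when any library other than SSC PDGF- replicate 1 was left out, with an adjusted p of up to 0.131 in edgeR.

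The transcription factor CEBPB, a partner of ATF4 on DNA, had the highest mean CPM of the regulators. It stood at 159.8, 322 and 304 CPM in SSC PDGF+ and at 163.5, 360.0 and 377 CPM in SSC PDGF-. Replicate 1 was far below replicates 2 and 3 in both groups, and the groups overlapped. The log2 fold change was -0.20 with a standard error of 0.36 (adjusted p = 0.734 in edgeR).

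Of the stress effectors best known as ATF4 targets, DDIT3, ATF3 and CHAC1 had few counts in every library. DDIT3, which encodes the stress factor CHOP, did not pass the filter, with 2, 3 and 0 counts in SSC PDGF+ and 8, 4 and 9 counts in SSC PDGF-. Its share of counts was 5.24 times as high in SSC PDGF- (exact 95% interval 1.92 to 17.8, which covers counting error only). ATF3, a repressor induced by many stresses, had 1.76 to 3.05 CPM across the 6 libraries and a log2 fold change of -0.03. CHAC1, an enzyme that breaks down glutathione, had 1.55 to 3.38 CPM in SSC PDGF+ and 1.97 to 5.09 CPM in SSC PDGF-, and was not called (adjusted p = 0.280 in edgeR).

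Of the regulators in this group, the kinases and the phosphatase subunit that act on eIF2 were not called. EIF2AK3 (PERK) had a log2 fold change of 0.41 and overlapping groups, and EIF2AK4 (GCN2) had 0.30 with the SSC PDGF+ libraries above the others. PPP1R15A (GADD34), which directs a phosphatase to eIF2, had 151 to 161 CPM in SSC PDGF+ and 188 to 192 CPM in SSC PDGF-, and its log2 fold change was -0.29 (adjusted p = 0.127 in edgeR). With the replicate block these 3 genes were called, both kinases higher and PPP1R15A lower, and CEBPB was called lower (log2 fold change -0.17). CEBPB was called higher (0.17) when the block was joined by a correction for GC content and length.

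**Figure D2:**
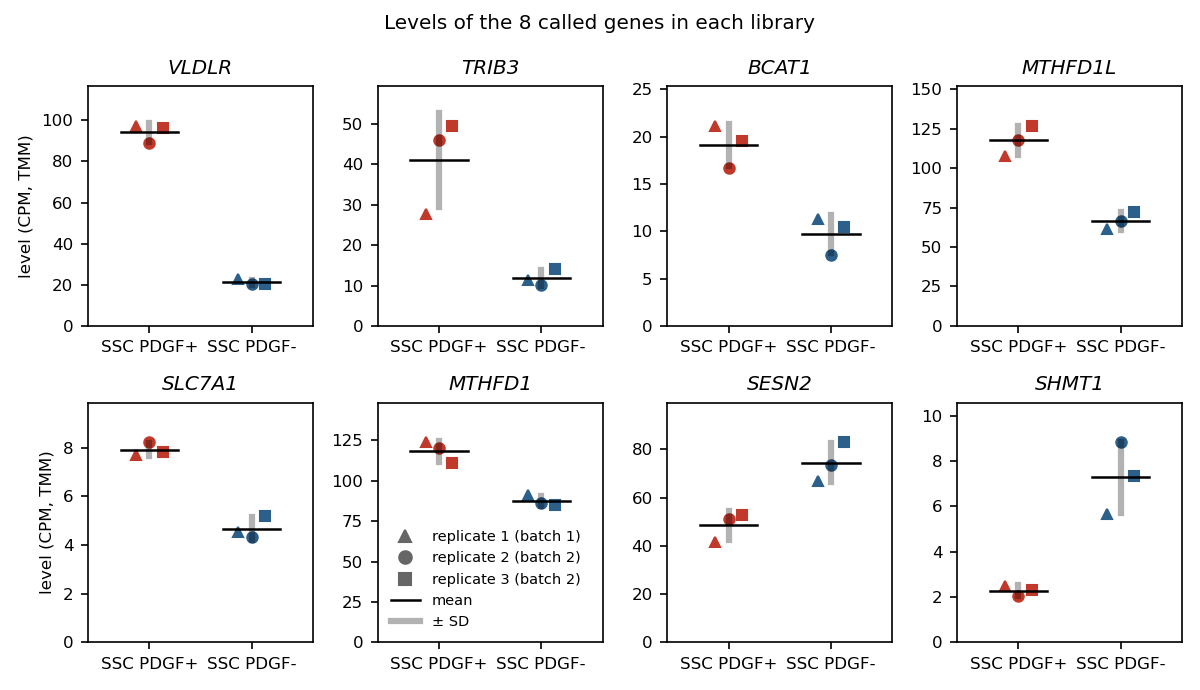
Level in CPM after TMM normalization (y axes, from 0) of the 8 called genes in each of the 6 libraries, by group (x axes), with triangles for batch 1, circles and squares for batch 2, black lines for the mean of 3 libraries and grey bars for 1 SD on either side. In all 8 panels the libraries of the 2 groups are apart, from VLDLR at 89.0 to 97.2 CPM against 20.6 to 22.7 CPM to MTHFD1 at 111 to 124 CPM against 85.2 to 91.2 CPM.

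The serine and one-carbon enzymes had 2 genes called higher and 1 lower of 8 tested, with a median log2 fold change of 0.00. Serine is made from a glycolytic intermediate by PHGDH, PSAT1 and PSPH in turn. PHGDH, the first enzyme of that route, had 48.9 to 68.4 CPM in SSC PDGF+ and 55.9 to 87.7 CPM in SSC PDGF-, with a log2 fold change of -0.31 (adjusted p = 0.339 in edgeR). PSAT1, the next enzyme, had 42.0 to 50.7 CPM and 37.4 to 53.7 CPM, with a log2 fold change of 0.01. Neither was called, while PHGDH was called lower with the replicate block.

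The 2 serine hydroxymethyltransferases, which split serine into glycine and a folate-bound carbon unit, were not called alike, and the difference between their fold changes was not tested. SHMT2, the mitochondrial form, stood at 212.6, 262 and 252 CPM in SSC PDGF+ and at 216, 257 and 260.4 CPM in SSC PDGF-. Each replicate lay close to the replicate of the same number in the other group, and the log2 fold change was -0.01 with a standard error of 0.14 (adjusted p = 0.968 in edgeR). SHMT1, the cytosolic form, stood at 2.50, 2.03 and 2.33 CPM in SSC PDGF+ and at 5.67, 8.81 and 7.35 CPM in SSC PDGF-. All 3 SSC PDGF+ libraries were below all 3 SSC PDGF- libraries, with a log2 fold change of -1.66 and a standard error of 0.27 (adjusted p = 0.00473 in edgeR). Within batches it came to -1.17 (batch 1) and -1.87 (batch 2). The call held with each library left out in turn, but not with replicates 2 and 3 summed (adjusted p = 0.0612 in edgeR). Per kilobase of exon, SHMT1 had 0.925 CPM in SSC PDGF+ and 2.94 CPM in SSC PDGF-, against 82.5 and 83.1 CPM for SHMT2.

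MTHFD1L, the mitochondrial enzyme that releases formate for export to the cytosol, was called higher. It stood at 108, 118 and 127 CPM in SSC PDGF+ and at 61.3, 66.3 and 72.3 CPM in SSC PDGF-. The groups were well apart in both batches, with a difference of 0.82 in each. The log2 fold change was 0.82 with a standard error of 0.14 (adjusted p = 0.00584 in edgeR), and its call held with each library left out in turn, but not with replicates 2 and 3 summed (adjusted p = 0.108 in edgeR).

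MTHFD1, the cytosolic enzyme that takes up that formate, was called higher by a narrow margin. It stood at 124, 120.0 and 111 CPM in SSC PDGF+ and at 91.2, 86.1 and 85.2 CPM in SSC PDGF-. The groups did not overlap, with a difference of 0.44 in batch 1 and 0.43 in batch 2. The log2 fold change was 0.43 with a standard error of 0.13 (adjusted p = 0.0485 in edgeR), and the call was lost with any 1 library left out, with an adjusted p of up to 0.160 in edgeR. MTHFD2, the mitochondrial dehydrogenase that precedes MTHFD1L, had 54.2 to 62.6 CPM and 39.0 to 54.7 CPM, and was not called (log2 fold change 0.38, adjusted p = 0.165 in edgeR). ALDH1L2, which burns mitochondrial formyl-folate to carbon dioxide, had 13.5 to 15.0 CPM and 14.9 to 15.6 CPM and a log2 fold change of -0.07.

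**Figure D3:**
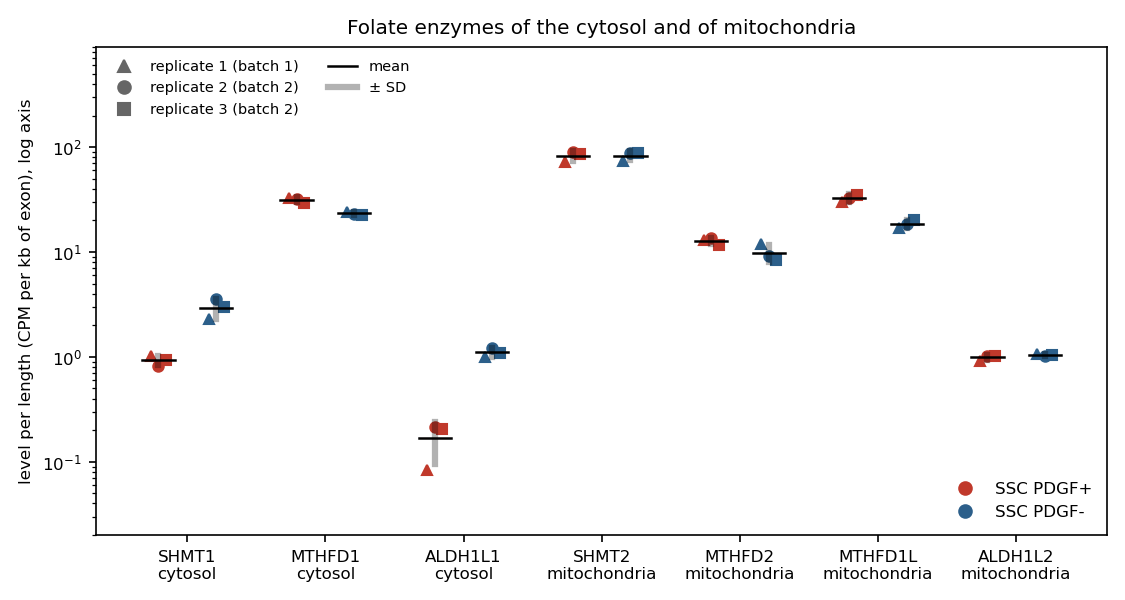
Level per length, in CPM per kb of exon on a log axis (y axis), of 3 cytosolic and 4 mitochondrial folate enzymes (x axis) in the 6 libraries, with red for SSC PDGF+, blue for SSC PDGF-, black lines for the mean and grey bars for 1 SD. SHMT1 and ALDH1L1 are lower in SSC PDGF+ (0.925 against 2.94 and 0.168 against 1.11 CPM per kb), MTHFD1L is higher (32.8 against 18.6), and the groups overlap for SHMT2 (82.5 against 83.1).

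In the wider set of 20 tested folate and glycine genes, 2 were called higher and 2 lower, with a median log2 fold change of 0.02. ALDH1L1, the cytosolic counterpart of ALDH1L2, stood at 0.338, 0.860 and 0.826 CPM in SSC PDGF+ and at 4.02, 4.89 and 4.41 CPM in SSC PDGF-. Its log2 fold change was -2.72 with a standard error of 0.39 (adjusted p = 0.00302 in edgeR), and its call held with each library left out. ALDH1L1 was not tested in the fit that asked for at least 10 counts in every library. SLC25A32, which carries folate into mitochondria, was called higher (log2 fold change 0.93, adjusted p = 0.0168 in edgeR). GLDC and AMT, both parts of the mitochondrial glycine cleavage system, moved apart, with log2 fold changes of 0.82 and -0.78 (adjusted p = 0.0195 and 0.0346 in edgeR). The call of SLC25A32 was lost without replicate 2 or 3 of SSC PDGF- (adjusted p of up to 0.0746 in edgeR), and GLDC without SSC PDGF+ replicate 2 or SSC PDGF- replicate 2 or 3 (up to 0.0832). AMT kept its call only without SSC PDGF- replicate 1 (otherwise up to 0.126). The replicate block called 6 of the 20 higher and 5 lower, against 31.1% and 29% of all tested genes.

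Of the 9 tested amino acid carriers, edgeR with TMM and no block called 1 higher and 0 lower over the 6 libraries. DESeq2 and limma-voom also called 0 lower. At an unadjusted p under 0.05 edgeR gave 3 higher and 2 lower, and DESeq2 and limma-voom called 3 and 2 carriers higher. The median log2 fold change of the carriers was 0.38, the highest of the 4 groups, with 6 positive and 3 negative values. SLC7A1, which imports arginine and lysine, stood at 7.70, 8.21 and 7.81 CPM in SSC PDGF+ and at 4.52, 4.31 and 5.19 CPM in SSC PDGF-. The groups did not overlap and differed alike in both batches, by 0.76 and 0.75. Its log2 fold change was 0.76 with a standard error of 0.21 (adjusted p = 0.0381 in edgeR), but the call was lost with any 1 library left out, with an adjusted p of up to 0.126 in edgeR.

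Another 4 carriers lay near the threshold, each with groups that did not overlap. Over all genes tested, 18.2% lay wholly higher and 19.3% wholly lower in SSC PDGF+. SLC7A2, a further arginine and lysine carrier, stood at 9.45, 9.15 and 10.1 CPM in SSC PDGF+ and at 7.31, 3.35 and 3.33 CPM in SSC PDGF-. Its SSC PDGF- level was higher in batch 1 than in batch 2, so the groups differed by 0.37 in batch 1 and by 1.51 in batch 2 (log2 fold change 1.02, adjusted p = 0.0649 in edgeR). SLC38A2, a sodium-coupled carrier of small neutral amino acids that rises in amino acid starvation, stood at 149.9, 104 and 109 CPM in SSC PDGF+ and at 97.7, 74.2 and 74.7 CPM in SSC PDGF-. Batch 1 was the highest library of each group, and the log2 fold change was 0.56 (adjusted p = 0.0819 in edgeR).

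The other 2 near the threshold had lower levels in SSC PDGF+. SLC3A2, the heavy chain that brings several carriers of the SLC7 family to the cell surface, had the highest mean CPM of the carriers. It stood at 183, 253 and 262 CPM in SSC PDGF+ and at 287, 347 and 329 CPM in SSC PDGF-. Batch 1 was the lowest library of each group, and the batches gave -0.65 and -0.39 (log2 fold change -0.47, adjusted p = 0.0939 in edgeR). SLC1A4, an exchanger of serine, alanine and cysteine, was scarce, at 1.76, 0.938 and 1.65 CPM in SSC PDGF+ and at 2.05, 3.16 and 4.11 CPM in SSC PDGF-. Its difference was small in batch 1 at -0.23 and larger in batch 2 at -1.51 (log2 fold change -1.08, adjusted p = 0.0971 in edgeR). All 4 carriers near the threshold were called with the replicate block, SLC7A2 and SLC38A2 higher and SLC3A2 and SLC1A4 lower. Without the block, SLC7A2 was also called by DESeq2 (adjusted p = 0.0238) and limma-voom (0.0439), and SLC38A2 by DESeq2 (0.0478). With upper quartile factors and no block, edgeR called SLC3A2 lower (adjusted p = 0.0484). Without SSC PDGF- replicate 1, edgeR called SLC7A2 and SLC38A2 higher (adjusted p = 0.00414 and 0.0337). The same fit called SLC3A2 and SLC1A4 lower (adjusted p = 0.0474 and 0.0425 in edgeR). With any other library left out, none of these 4 carriers was called (adjusted p of 0.0927 to 0.293 in edgeR). Nor was any called with replicates 2 and 3 summed and no batch term (0.306 to 0.364 in edgeR).

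The remaining 4 carriers overlapped between groups. SLC1A5, a glutamine exchanger, had 105 to 149 CPM in SSC PDGF+ and 77.7 to 121 CPM in SSC PDGF- (log2 fold change 0.38). SLC38A1, a glutamine importer, had 24.9 to 38.7 CPM and 18.0 to 28.7 CPM (log2 fold change 0.44). For both, each SSC PDGF+ replicate was above the SSC PDGF- replicate of the same number, and the replicate block called both higher. SLC7A11, the cystine and glutamate exchanger, had 2.74 to 6.21 CPM and 3.23 to 7.39 CPM (log2 fold change -0.16). SLC6A9, a glycine carrier, had 10.7 to 20.1 CPM and 13.2 to 17.7 CPM (log2 fold change 0.09).

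**Figure D4:**
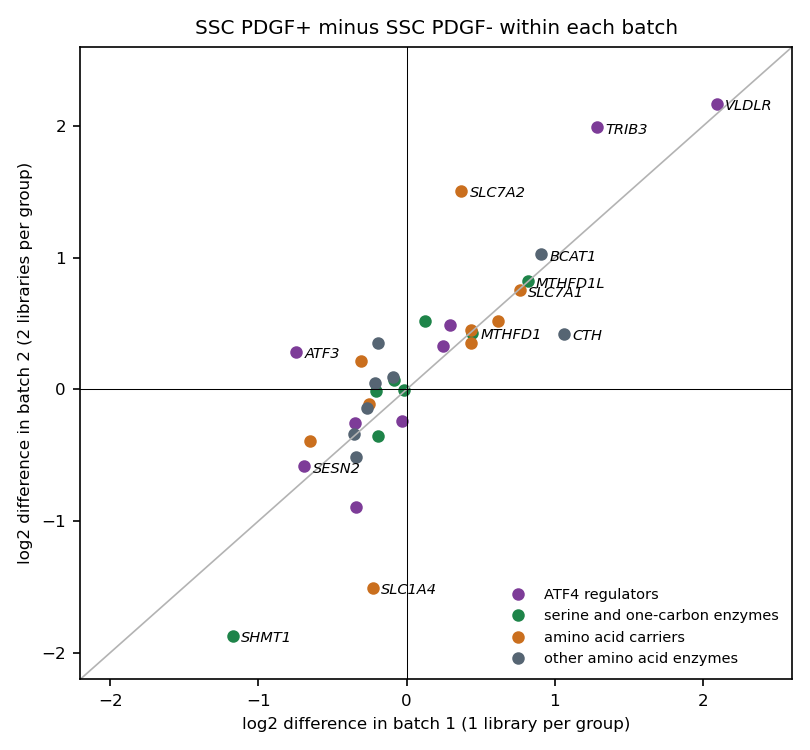
Log2 difference between SSC PDGF+ and SSC PDGF- of the 34 tested genes in batch 1 (x axis, 1 library per group) against batch 2 (y axis, 2 libraries per group), coloured by gene group, with a grey line where both are equal. VLDLR lies at 2.09 and 2.17 and SHMT1 at -1.17 and -1.87, while SLC7A2 (0.37 and 1.51) and SLC1A4 (-0.23 and -1.51) differ mainly in batch 2.

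Of the other 22 amino acid carriers on a wider list, 18 were tested, with 1 called higher, 4 lower and a median log2 fold change of -0.17. SLC6A15, a carrier of branched-chain amino acids and proline, stood at 15.6, 9.46 and 9.69 CPM in SSC PDGF+ and at 3.53, 4.12 and 3.72 CPM in SSC PDGF-, and its log2 fold change was 1.61 (adjusted p = 0.00523 in edgeR). SLC7A8, a light chain of SLC3A2 that exchanges neutral amino acids, stood at 141, 183 and 189 CPM in SSC PDGF+ and at 370.2, 465 and 484 CPM in SSC PDGF-. SLC7A7, another light chain of SLC3A2, stood at 7.76, 8.45 and 9.62 CPM and at 17.7, 18.9 and 19.0 CPM. Both light chains were lower in every SSC PDGF+ library, with log2 fold changes of -1.36 and -1.10 (adjusted p = 0.00155 and 0.00438 in edgeR). SLC38A3, a glutamine carrier, had 0.782 to 1.15 CPM and 2.55 to 4.69 CPM, with a log2 fold change of -1.81 (adjusted p = 0.0128 in edgeR). The remaining carrier called lower, SLC6A6, which imports taurine and is named after its values were seen, had 13.6 to 15.9 CPM and 23.7 to 31.8 CPM (log2 fold change -0.96, adjusted p = 0.00837 in edgeR). The calls of SLC6A15, SLC7A8, SLC7A7 and SLC6A6 held with each library left out in turn, while that of SLC38A3 was lost without replicate 2 or 3 of SSC PDGF+ or replicate 2 of SSC PDGF- (adjusted p of up to 0.0595 in edgeR). With replicates 2 and 3 summed, SLC6A15 and SLC7A8 were still called, while SLC7A7, SLC6A6 and SLC38A3 were not (adjusted p = 0.0749, 0.0879 and 0.0939 in edgeR). With the replicate block, 3 of the 18 were called higher and 6 lower, against 31.1% and 29% of all tested genes.

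The other amino acid enzymes had 1 of 8 tested genes called, with a median log2 fold change of -0.0029. BCAT1, the cytosolic enzyme that moves amino groups from branched-chain amino acids to glutamate, stood at 21.1, 16.7 and 19.5 CPM in SSC PDGF+ and at 11.3, 7.47 and 10.5 CPM in SSC PDGF-. All SSC PDGF+ libraries were above all SSC PDGF- libraries, by 0.91 in batch 1 and 1.03 in batch 2. The log2 fold change was 0.97 with a standard error of 0.21 (adjusted p = 0.0164 in edgeR). The call was lost without SSC PDGF+ replicate 3 or SSC PDGF- replicate 2 or 3, with an adjusted p of up to 0.0583 in edgeR.

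ALDH18A1, which opens the route from glutamate to proline, had the highest mean CPM of this group. It stood at 80.9, 78.9 and 83.5 CPM in SSC PDGF+ and at 86.3, 74.2 and 77.9 CPM in SSC PDGF-. The groups overlapped, with a log2 fold change of 0.03 and a standard error of 0.13 (adjusted p = 0.900 in edgeR). PYCR1, which closes the same route, had 15.3 to 27.4 CPM and 18.5 to 30.3 CPM (log2 fold change -0.17).

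Asparagine synthetase, ASNS, the enzyme most used as a readout of ATF4, had 19.0 to 21.7 CPM in SSC PDGF+ and 21.1 to 29.3 CPM in SSC PDGF-, with a log2 fold change of -0.36 (adjusted p = 0.208 in edgeR). GPT2, the mitochondrial alanine aminotransferase, had 20.3 to 29.7 CPM and 25.8 to 41.2 CPM (log2 fold change -0.46, adjusted p = 0.194 in edgeR). These 2 genes overlapped between groups and were called lower with the replicate block. CTH, which makes cysteine from cystathionine, stood at 7.76, 5.24 and 4.58 CPM in SSC PDGF+ and at 3.70, 3.64 and 3.63 CPM in SSC PDGF-. Its groups did not overlap, and its difference was largest in batch 1, at 1.06 against 0.42 in batch 2 (log2 fold change 0.68, adjusted p = 0.123 in edgeR, called higher with the block). With the GC and length correction added to the block, CTH was not called (adjusted p = 0.0829 in edgeR). Batch 2 alone did not call it either (adjusted p = 0.296 in edgeR). CBS, the enzyme before CTH, and GOT1, a cytosolic aspartate aminotransferase, had log2 fold changes of 0.20 and -0.03.

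Upstream of ATF4, 2 of 12 tested genes for the eIF2 kinases, eIF2 and its exchange factor eIF2B were called higher, with a median log2 fold change of 0.22. No gene of this list was called lower by edgeR, DESeq2 or limma-voom, nor was one lower at an unadjusted p under 0.05. With the replicate block 10 of the 12 were called higher and 0 lower, against 31.1% and 29% of all tested genes. EIF2AK2, the kinase PKR that senses double-stranded RNA, stood at 16.3, 11.9 and 14.3 CPM in SSC PDGF+ and at 9.69, 5.65 and 6.37 CPM in SSC PDGF- (log2 fold change 0.96, adjusted p = 0.0349 in edgeR). EIF2B2, a subunit of eIF2B, stood at 84.2, 78.7 and 82.5 CPM and at 51.4, 60.0 and 62.1 CPM (log2 fold change 0.50, adjusted p = 0.0408 in edgeR). EIF2AK2 kept its call only without SSC PDGF- replicate 1 (otherwise an adjusted p of up to 0.121 in edgeR), and EIF2B2 lost it with any 1 library left out (up to 0.126).

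Of the 19 tested cytosolic tRNA synthetases, which charge tRNAs with amino acids, 17 had a positive log2 fold change and the median was 0.29, but only 1 was called higher and 1 lower. SARS1, which charges the serine tRNA, had a log2 fold change of 0.66, and QARS1, which charges the glutamine tRNA, had -0.53 (adjusted p = 0.0417 and 0.0413 in edgeR). SARS1 stood at 114, 94.7 and 92.6 CPM in SSC PDGF+ and at 78.0, 52.2 and 60.4 CPM in SSC PDGF-. Both calls were kept only without SSC PDGF- replicate 1 (otherwise up to 0.148 and 0.157 in edgeR). With the replicate block 16 synthetases were called higher and 1 lower, against 31.1% and 29% of all tested genes.

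Of 11 tested genes on a list of further ATF4 targets, 2 were called higher and 1 lower, with a median log2 fold change of -0.12. VEGFA, a blood vessel growth factor that many other signals also induce, had a log2 fold change of 3.02 (adjusted p = 3.29e-05 in edgeR). STC2, a secreted glycoprotein, stood at 14.0, 15.7 and 16.2 CPM in SSC PDGF+ and at 7.06, 9.29 and 6.76 CPM in SSC PDGF- (log2 fold change 0.99, adjusted p = 0.0123 in edgeR). JDP2, a repressor of the AP-1 family, had a log2 fold change of -0.58 (adjusted p = 0.0430 in edgeR). The call of STC2 was lost without replicate 2 or 3 of SSC PDGF+ or replicate 3 of SSC PDGF- (up to 0.0532 in edgeR), and JDP2 kept it only without SSC PDGF- replicate 1 (otherwise up to 0.165). The replicate block called 3 of the 11 higher and 4 lower, against 31.1% and 29% of all tested genes.

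Of 15 tested enzymes of glutamine, proline and branched-chain amino acids, 1 was called higher by edgeR and the median log2 fold change was 0.03. This was GCLM, a subunit of the enzyme that opens glutathione synthesis, with a log2 fold change of 0.88 (adjusted p = 0.0326 in edgeR). It stood at 42.1, 32.1 and 35.4 CPM in SSC PDGF+ and at 26.5, 16.5 and 16.7 CPM in SSC PDGF-, and kept its call only without SSC PDGF- replicate 1 (otherwise up to 0.121). The replicate block called 4 of the 15 higher and 5 lower, against 31.1% and 29% of all tested genes. Among those lower was GCLC, the partner subunit of GCLM in that enzyme. It lay wholly lower in SSC PDGF+ but was not called by edgeR without the block. DESeq2 called 1 of the 15 higher and 1 lower. Over the 6 wider lists together, 9 of 95 tested genes were called higher (9.47%) and 8 lower (8.42%), against 7.61% and 10.7% of all tested genes. With replicates 2 and 3 summed, VEGFA, ALDH1L1, SLC7A8 and SLC6A15 were those still called.

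ATF4 is known to bind, with a C/EBP partner, a composite DNA element spelled TGATGNAAN. Its letters were searched on both strands in windows from 250 bases before to 50 bases after each annotated transcript start, in the RefSeq annotation of Mmul_10. With the outermost start of each gene, 3 of the 41 genes (7.32%) and 2.92% of all 20787 genes held a match. With every annotated start, 11 of the 41 (26.8%) and 5.15% of all genes did, and the search of every start was chosen after the outermost starts had been searched. Genes with more annotated starts have more windows. The 41 genes were chosen as the ATF4 programme, so their choice itself favours a share above that of all genes. The 11 were ATF3, DDIT3, NUPR1, PSAT1, PSPH, SLC7A11, SLC38A1, SLC6A9, ASNS, PYCR1 and CBS, of which 8 were tested for expression. Of these 8, edgeR, DESeq2 and limma-voom called 0, and 0 had an unadjusted p under 0.05, while the replicate block called SLC38A1 higher and ASNS lower. The stricter spelling TGATGCAA, most of whose matches also match the longer one, occurred at any start in 8 of the 41 (19.5%) and in 1.08% of all genes. The cyclic AMP response element TGACGTCA occurred in 1 of the 41 (2.44%), PPP1R15A, and in 2.64% of all genes at any start. The ER stress element, searched in its standard form, occurred in 0.0866% of all genes and in no window of the 41.

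The runs below show the element in 6 of these genes, with the matched letters in capitals and 10 bases on either side, 5′ to 3′ on the strand of the match. They lie at chr11:57095912-57095940 (DDIT3, plus strand), chr5:136110217-136110245 (SLC7A11, plus strand), chr3:108301018-108301046 (ASNS, plus strand), chr15:93643965-93643993 (PSAT1, minus strand), chr16:78236989-78237017 (PYCR1, minus strand) and chr11:45804160-45804188 (SLC38A1, minus strand) of Mmul_10.
DDIT3: ggggcggggaTGATGCAATgtttggcaac
SLC7A11: agctaaatgaTGATGCAAAttctccaggt
ASNS: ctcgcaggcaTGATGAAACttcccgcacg
PSAT1: ccgtgcatgcTGATGCAAAgcgcctaggg
PYCR1: ggcgcgcggaTGATGCAACcgctttggcg
SLC38A1: ggggagattcTGATGCAATcggcccggaa

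The runs show the letters best known for ATF4 in genes whose levels are given above. Those of DDIT3 and SLC7A11 lie in the window of the outermost start. Those of ASNS, PSAT1, PYCR1 and SLC38A1 were matched only at other annotated starts. The 150 bases before the outermost start of the genes with the largest rises are also given, as read on the minus strand, where both genes lie. These bases lie at chr10:66190819-66190968 for TRIB3 and chr15:81255846-81255995 for VLDLR. Neither holds any of the letters searched, which says only that they are not in these windows. Both stretches are shorter than the windows searched for the runs and leave out other starts, so they cannot be compared with the runs.
TRIB3: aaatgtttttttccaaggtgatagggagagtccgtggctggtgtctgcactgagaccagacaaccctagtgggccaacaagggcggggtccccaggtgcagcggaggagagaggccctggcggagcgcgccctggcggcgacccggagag
VLDLR: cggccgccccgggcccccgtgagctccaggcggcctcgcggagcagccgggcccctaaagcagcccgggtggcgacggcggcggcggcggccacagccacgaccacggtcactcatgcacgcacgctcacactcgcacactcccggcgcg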

How the data were processed

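Bulk RNA of cultured SSCs was sequenced in 6 libraries, 3 per group. The authors deposited estimated counts per gene without normalization; 34 values in 13 genes were not whole, and all were rounded. The submitters' processing notes name fastp, HISAT2 2.1.0, SAMtools, featureCounts 2.0.1 and the builds Mmul_10 and Mmul_8.0.1 without saying which build the counts used, so coordinates and sequences are those of RefSeq release 103 on Mmul_10 alone, and exon lengths and GC content come from it too. Strand-specific counting is not stated, so antisense and overlapping transcripts cannot be told apart. No count column was left without a sample, and no gene of the 41 shared its counts with another gene.

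Counts were normalized with TMM, filtered with filterByExpr and tested with edgeR 4.0.16 (quasi-likelihood test, R 4.3.3) without a block over 11539 genes, with Benjamini-Hochberg adjustment over all of them and calls at an adjusted p under 0.05. CPM values were computed from the deposited counts after TMM. Differences within a batch are differences of mean log2 CPM, with 0.5 counts added in each library. The gene groups, the wider lists and the markers were chosen with earlier results of these data known. The rule for named genes also asked for ATF4, not analysed here. By it, called members and the member with the highest mean CPM of each group are given in every library. Other members are given by their range or fold change, and up to 3 called genes per direction of each wider list are named. GCLC is named beside GCLM after its values were seen. UCHL1, ID4, FGFR3, DDX4, TSPAN33, NANOS2, CLU, AMH, SOX9, CLDN11, IGF1, CD3E and CD8A are named for the check of cell types.

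Per the labels, a replicate number stands for the same batch in both groups. Across genes, how far same-numbered libraries lay from their group mean correlated (Pearson's r of 0.73, 0.35 and 0.37 for 1, 2 and 3). Replicates 2 and 3 correlated as well across numbers (0.36 and 0.39), so these values show the batches but do not single out pairs within batch 2. The numbers were used as a block in an alternative fit only, and the main test took up neither the numbers nor the batch. Alternatives were other normalization factors and filters, DESeq2 1.42.0, limma-voom (limma 3.58.1), a term for the replicate number or for batch, a fit of batch 2, a GC and length correction (available for 97.3% of tested genes), other thresholds and each library left out. On simulated counts for the same comparison (11410 genes tested), edgeR recovered 60 of 98 genes changed by a log2 fold of 1 and 99 of 102 changed by 2, with 8 other calls. The simulated libraries held no batch shared by the groups, unlike the real ones, so these rates may not carry over. Figures were drawn with matplotlib 3.10.9 under Python 3.11.15.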

Additional observations from a re-analysis of the deposited data

How the results depend on the processing

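Of the 34 tested genes, 6 were called higher and 2 lower. The counts stayed within 1.5 times of these, or within 1 gene, with RLE factors (6 and 2), upper quartile factors (4 and 3), no factors (5 and 2), no count filter (5 and 2), at least 10 counts in every library (5 and 2), DESeq2 (8 and 2) and limma-voom (7 and 2). With the replicate block, which follows the replicate number, they were 14 and 9. They were also 14 and 9 with batch as a term, and with the block and a GC and length correction. Replicates 2 and 3 summed, with batch as a term, gave the same. The genes differed with the GC and length correction. CTH was then not called (adjusted p = 0.0829 in edgeR), while ALDH1L2 was called lower (0.0419 in edgeR). Batch 2 alone gave 13 and 9, with a median log2 fold change of 0.14. With replicates 2 and 3 summed and no batch term edgeR called 2 higher and 0 lower, against 5 and 1 at an unadjusted p under 0.05. An adjusted p under 0.01 left 3 and 1, and an absolute log2 fold change of at least 1 left 2 and 1. Leaving out 1 library gave 3 to 8 higher, 1 to 4 lower and a median log2 fold change from -0.0063 to 0.14. The lowest count of higher genes came without SSC PDGF+ replicate 3 or SSC PDGF- replicate 2 or 3, and both highest counts came without SSC PDGF- replicate 1. CEBPB changed sign, from -0.17 with the block to 0.17 with the block and the GC and length correction (called both times); the cause was not tested. Over all tested genes the block raised the calls from 878 higher and 1230 lower to 3587 and 3347, and the other fits that take up or hold the batch gave 3035 to 3669 and 3085 to 3420. Summing lowered them to 206 and 487, and leaving out 1 library gave 435 to 1284 and 726 to 1726.

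Depth limits DDIT3, ATF3, SHMT1, SLC1A4 and ALDH1L1, which had few counts. ATF4 protein and translation were not measured, and 6 of the 41 genes were not analysed.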
